A study of Mus musculus with 4 samples.

Results

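Elements at the start sites of long noncoding RNA (lncRNA) genes, away from the promoters of coding genes, were examined in a reporter assay of mouse T helper 17 (Th17) cells. An element was taken when its centre lay within 1 kb of a transcription start site (TSS) of a lncRNA gene and more than 1 kb from every protein-coding TSS in GENCODE mouse release M21. The lncRNA genes were those of 7 annotated types, among them lincRNA (between coding genes), antisense (on the opposite strand of another gene) and processed_transcript. Of 24217 elements on the chromosomes of mouse build GRCm38 (mm10), 525 met the rule, 2.17% of them. They lay at 489 genes, 5.69% of the 8592 lncRNA genes that have a TSS more than 1 kb from every coding one.

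The assay was STARR-seq, in which genomic fragments are cloned inside the transcript of a reporter plasmid, so that an active fragment raises the amount of RNA that carries it. There were 4 biological replicates of 1 group, which share a single donor label, and the authors' deposited table combines them. The cells were primary activated Th17 cells of strain C57BL/6NJ (sex not collected, age unknown) that carried the library as an episome after transient transfection. Over 3 days they received anti-CD3e (0.25 µg/mL), anti-CD28 (1 µg/mL), anti-Interleukin-4 (2 µg/mL), anti-Interferon-gamma and Interleukin-6, and the library was made from 30 µg of nucleic acid with a size range of 200 to 400. The table holds reporter elements and no gene expression, so the cells' identity was not checked against marker genes. Depth is unknown, no value has an error between replicates, and no test between conditions exists. Each element's log2 fold change and q-value (a p-value adjusted for multiple testing) are the authors' own. The direction of the fold change is not stated; here a positive value is read as more reporter RNA than input and called higher, a negative one as less and called lower, and the names would swap were it the reverse. A log2 value of 1 is a doubling.

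A lncRNA is a long transcript that is not translated; some act on chromatin or on other RNAs, some are precursors of small RNAs, and for many no role is known. Their promoters are of several kinds: part are CpG islands like those of most housekeeping genes, and part are CpG-poor and resemble enhancers, which are themselves transcribed. Activated T cells hold high levels of AP-1, a family of Fos, Jun and BATF proteins, and BATF can bind jointly with the interferon regulatory factor IRF4 during Th17 differentiation. A reporter plasmid lacks the chromatin of the gene's own locus, so a listed element says what a fragment did in the plasmid, not whether the lncRNA was transcribed.

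The first sequences show the contrast that ran through these elements, dense against sparse CG dinucleotides, and were chosen after their values were seen. Capitals mark every CG. Each is the central 300 bases of an element, read 5′ to 3′ along the strand of the lncRNA from the GRCm38 reference. Lncpint, a lncRNA known as a p53 target, had a CpG-rich element at one start, which was lower than input, and a CpG-poor one at another, which was higher. The Lncpint windows are chr6:31216438-31216737 (minus strand, log2 fold change -1.28 in the authors' deposited table) and chr6:31088376-31088675 (minus strand, 1.77).
Lncpint outer start: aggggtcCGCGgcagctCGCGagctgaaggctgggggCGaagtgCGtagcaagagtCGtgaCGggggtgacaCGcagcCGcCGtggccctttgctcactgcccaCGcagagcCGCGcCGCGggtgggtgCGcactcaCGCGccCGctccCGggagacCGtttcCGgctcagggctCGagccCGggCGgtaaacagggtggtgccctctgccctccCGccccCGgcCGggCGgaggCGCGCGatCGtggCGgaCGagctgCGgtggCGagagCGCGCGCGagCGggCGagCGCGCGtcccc
Lncpint inner start: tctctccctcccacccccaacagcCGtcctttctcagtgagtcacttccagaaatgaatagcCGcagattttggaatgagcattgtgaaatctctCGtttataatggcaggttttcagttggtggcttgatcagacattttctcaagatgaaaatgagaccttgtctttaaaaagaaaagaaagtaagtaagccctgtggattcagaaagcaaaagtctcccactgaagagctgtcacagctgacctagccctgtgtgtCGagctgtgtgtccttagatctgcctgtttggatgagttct
The lower Lncpint window held 47 CG dinucleotides and the higher one 4. Over the whole elements, GC content was 70.3% and 50.3%.

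The next sequences show recognition sequences of the factors named above. Capitals mark each AP-1 match in the first 3 sequences and each IRF match in the last. Matches of the other factor are left in lower case, as at gaaagagaa, an IRF match in the Alkbh3os1 window. AP-1 was searched as TGANTCA and IRF as GAAANNGAA, both in either orientation, where N is any base. The first 3 are the highest members without a near-identical copy elsewhere among those with at least 2 AP-1 matches in their central 300 bases: Gm13686 at chr2:83700738-83701037 (minus strand), 2310043O21Rik at chr15:38594801-38595100 (minus strand) and Alkbh3os1 at chr2:93979788-93980087 (plus strand). The last, at Gm42917, has 3 IRF matches and covers chr5:121384001-121384225 (plus strand).
Gm13686 start: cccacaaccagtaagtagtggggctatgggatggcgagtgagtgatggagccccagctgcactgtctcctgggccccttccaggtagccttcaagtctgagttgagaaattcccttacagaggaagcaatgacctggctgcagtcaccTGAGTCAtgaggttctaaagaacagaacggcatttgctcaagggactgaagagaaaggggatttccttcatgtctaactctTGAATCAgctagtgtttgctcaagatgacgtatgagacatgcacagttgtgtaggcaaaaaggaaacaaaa
2310043O21Rik start: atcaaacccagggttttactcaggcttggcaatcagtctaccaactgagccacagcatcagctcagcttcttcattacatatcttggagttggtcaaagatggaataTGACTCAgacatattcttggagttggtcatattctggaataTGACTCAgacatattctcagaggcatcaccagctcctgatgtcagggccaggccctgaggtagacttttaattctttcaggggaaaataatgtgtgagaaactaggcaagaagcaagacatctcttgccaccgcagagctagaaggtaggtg
Alkbh3os1 start: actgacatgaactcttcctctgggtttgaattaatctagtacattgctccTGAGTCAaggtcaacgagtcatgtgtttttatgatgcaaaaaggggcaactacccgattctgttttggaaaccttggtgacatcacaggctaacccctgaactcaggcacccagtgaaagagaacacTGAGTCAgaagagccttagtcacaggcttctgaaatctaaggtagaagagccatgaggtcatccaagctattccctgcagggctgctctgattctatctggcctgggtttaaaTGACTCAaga
Gm42917 start: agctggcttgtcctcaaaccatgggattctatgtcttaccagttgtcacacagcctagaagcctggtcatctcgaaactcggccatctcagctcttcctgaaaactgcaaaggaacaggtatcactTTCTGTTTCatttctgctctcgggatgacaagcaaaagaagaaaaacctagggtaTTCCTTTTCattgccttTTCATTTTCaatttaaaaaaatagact
In the authors' deposited table the log2 fold change was 2.35 for Gm13686, 1.83 for 2310043O21Rik, 1.45 for Alkbh3os1 and 4.17 for Gm42917. Gm13686 and 2310043O21Rik held 2 AP-1 matches each and Alkbh3os1 held 3. A match describes the letters in a window and is not evidence that a factor was bound there.

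Higher and lower elements were nearly equal in number at lncRNA starts. Of the 525 elements, 268 were higher and 257 lower, so 51.0% were higher (exact binomial 95% interval 46.7% to 55.4%, which covers counting error only), beside 49.4% of all 24217 elements in the table. Every listed element had already passed the authors' q-value threshold of 0.01 in one direction, so these shares say nothing of fragments that did not pass it. Coding promoter elements, with a centre within 1 kb of a coding TSS, were higher in 13.3% of 9508 cases. Other distal elements, those away from both kinds of start, were higher in 73.5% of 14184. The share at lncRNA starts lay between those of the other groups.

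The values formed one positive and one negative cloud. Higher members had a median log2 fold change of 1.42, with the middle of their distribution from 1.00 to 2.16 (quartiles), and lower members a median of -1.23 (quartiles -1.58 to -0.95). The smallest absolute value was 0.50. Over all listed elements the medians of higher and lower ones were 1.47 and -1.33. Values passed 2 in 78 members and fell under -2 in 26, so values of that size were more often positive among members. The 78 include elements with near-identical copies elsewhere in the genome (24 members, median 3.03), whose values are uncertain in position. These counts have no counterpart here over all listed elements, so they are not read as particular to lncRNA starts. The median over all members, 0.58, lay at the lower edge of the positive cloud. It says little, because higher and lower members were nearly equal in number.

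CpG content divided the members. An element was called CpG-rich when its GC content was over 50% and its CpG count over 0.6 of that expected from its C and G content. Of the 163 CpG-rich members, 31 were higher (19.02%, exact interval 13.3% to 25.9%), and their median was -1.19. Of the 362 CpG-poor members, 237 were higher (65.5%, 60.3% to 70.4%), and their median was 0.98. Over all listed elements the same shares were 8.99% and 72.2%. CpG-rich members made up 31.0% of lncRNA starts, 81.0% of coding promoter elements and 6.15% of other distal elements.

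**Figure D1:**
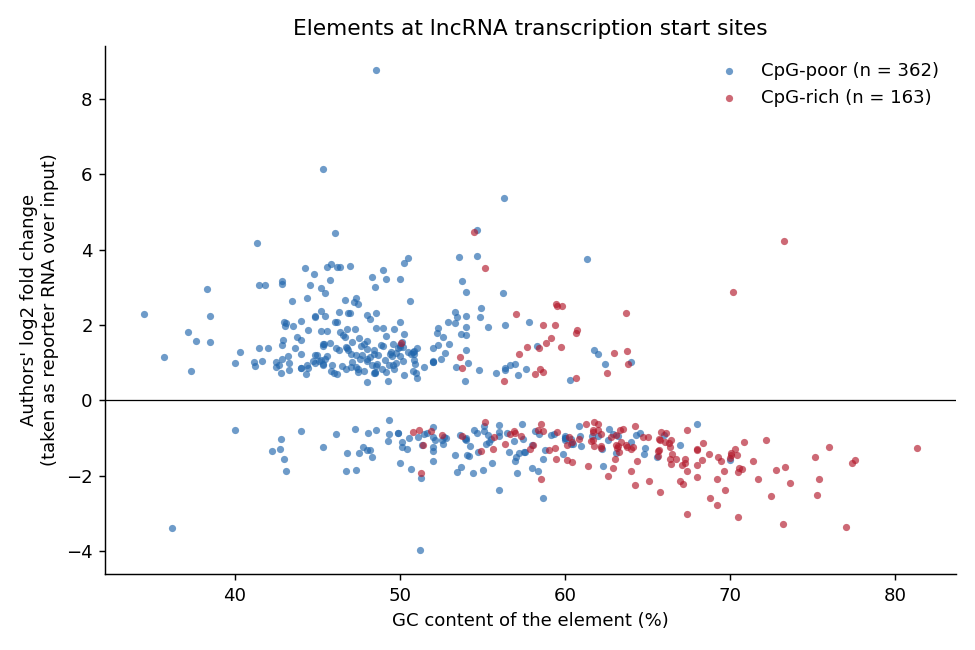
Each point is 1 of the 525 elements at lncRNA starts, with GC content (%) on the x axis and the authors' log2 fold change on the y axis; red points are the 163 CpG-rich elements and blue points the 362 CpG-poor ones. Positive values thin out as GC rises and only 2 lie above 65% GC, while negative values reach from low to high GC.

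The share of higher members went down with GC content in every step above 45%. It was 81.8% of 11 members with up to 40% GC, 88.7% of 53 from 40% to 45%, and 85.4% of 130 from 45% to 50%. It then stood at 56.1% of 98, 34.9% of 86 and 18.9% of 74 in the next bins of 5%, and at 2.74% of 73 above 65%. Coding promoter elements passed through the same range, from 93.3% to 2.48%, and other distal elements from 90.8% to 6.22%.

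Set against elements of the same GC content, lncRNA starts differed less from the other groups. Other distal elements weighted to the members' GC deciles would give 53.5% higher, a difference of -2.50 percentage points from there to the members' 51.0%. Coding promoter elements weighted likewise would give 43.5%, 7.54 points below the members. Without weighting these gaps are those between 51.0% and 73.5% or 13.3%. Within the CpG-rich class the same weighting gave 16.5% for other distal elements and 12.1% for coding promoters, beside 19.02% for members. In the CpG-poor class the coding promoters gave 58.3% beside 65.5% for members, and the other distal elements gave 68.8% beside 65.7% for the 361 members with a matched stratum. Elements are not replicates, so no test is attached to these differences.

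**Figure D2:**
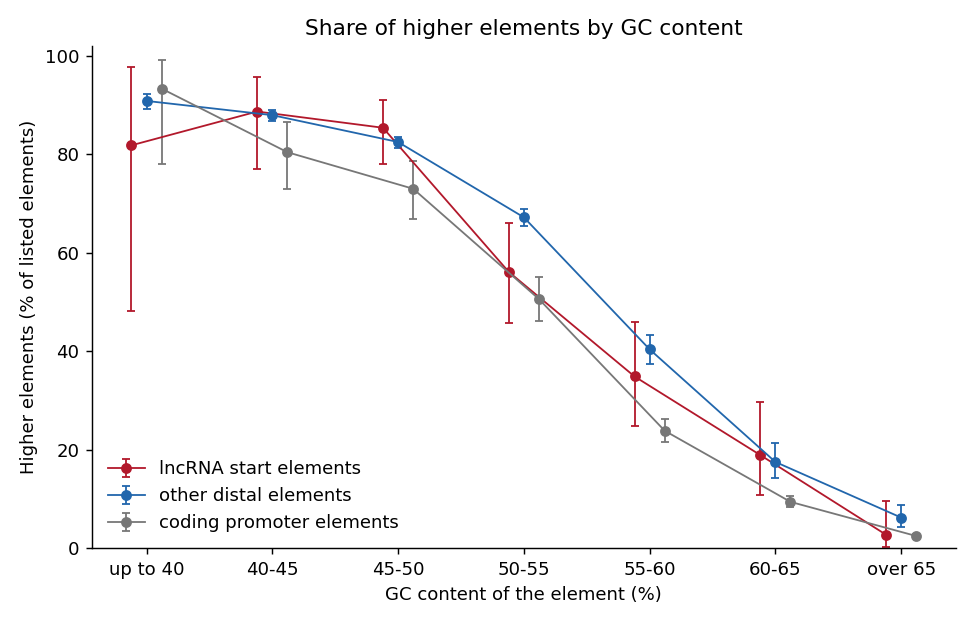
Points give the percent of higher elements in each bin of GC content, with exact binomial 95% intervals, for elements at lncRNA starts (red), other distal elements (blue) and coding promoter elements (grey). All groups go from over 80% in the poorest bins to under 7% above 65% GC.

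The shares of lincRNA, antisense and processed_transcript members spanned a somewhat narrower range within each CpG class than over all members. LincRNA and antisense, nearly equal over all members, lay farther apart in the CpG-rich class. LincRNA starts gave 291 members, 52.9% higher, and antisense starts 133, 53.4% higher. The 89 members at processed_transcript genes were higher in 39.3%. Among CpG-poor members the shares were 66.8% of 205 for lincRNA, 66.3% of 101 for antisense and 55.3% of 47 for processed_transcript (exact interval 40.1% to 69.8%). Among CpG-rich members they were 19.8% of 86, 12.5% of 32 and 21.4% of 42. Of 9 sense_intronic members 6 were higher. Both elements at Haglr, an antisense RNA of the HoxD cluster with a bidirectional promoter, were higher (0.69 and 1.03 in the authors' deposited table), and the single sense_overlapping member, at AC157931.1, was lower (-1.31).

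The share varied less with position around the start than with CpG class. By the distance of the element's centre from the TSS, 44.7% to 48.8% were higher in each of the 4 bins from 250 bp upstream to 250 bp downstream. The share was 63.8% of 69 members centred 500 to 1000 bp upstream and 52.7% of 74 centred as far downstream. Elements that span the TSS were higher in 47.2% of 303 cases and those beside it in 56.3% of 222. Among CpG-poor members the shares were 66.3% of 175 spanning it and 64.7% of 187 beside it. Among CpG-rich ones the shares were 21.1% of 128 and 11.4% of 35. Just inside the limit of 1 kb (500 to 1000 bp from the TSS) 58.0% of 143 members were higher, and just outside it (1000 to 1500 bp) 59.3% of 113 elements were.

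**Figure D3:**
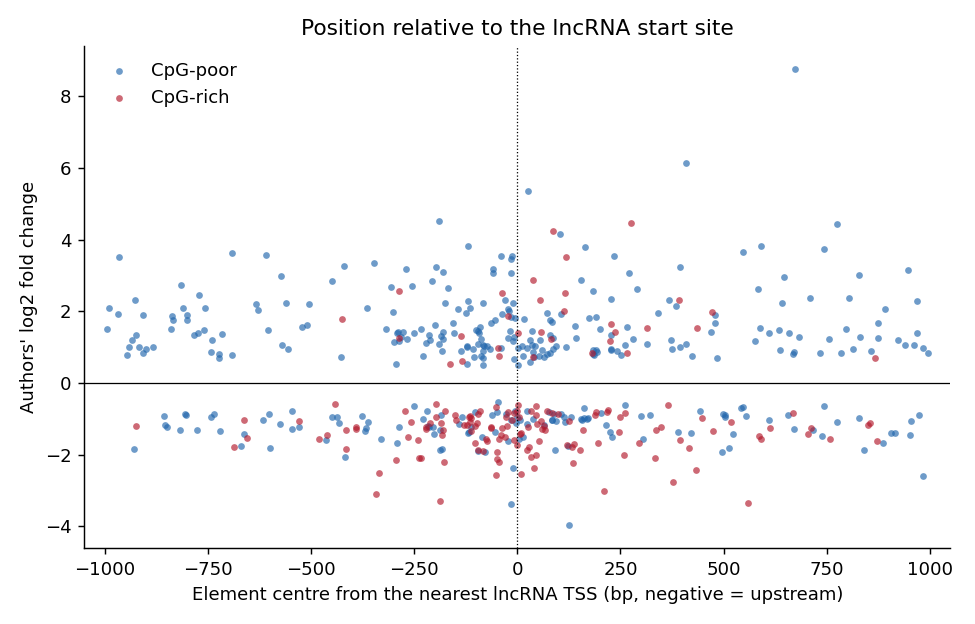
Each point is 1 element; the x axis is the distance of its centre from the nearest lncRNA TSS in bp, negative upstream, and the y axis the authors' log2 fold change, with CpG-rich elements in red and CpG-poor ones in blue. Higher and lower elements occur at all distances, and CpG-rich elements crowd around the TSS, mostly below 0.

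Distance from coding genes went with the outcome. Members 1 to 2 kb from a coding TSS were higher in 28.9% of 45 cases, and members more than 100 kb away in 69.3% of 75. Among CpG-poor members the shares were 13 of 26 members at 1 to 2 kb, 66.7% of 33 at 2 to 5 kb, 54.7% of 95 at 5 to 20 kb, 69.8% of 149 at 20 to 100 kb and 78.0% of 59 beyond. CpG-poor elements of the other distal group went from 63.8% at 1 to 2 kb to 89.0% beyond 100 kb. The centre lay outside coding genes in 375 members (51.2% higher), in an intron of one in 121 (55.4%), in a coding exon in 18 (3 higher) and in an untranslated region in 11 (6 higher).

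Repeats and copied sequence lay on the higher side. Where at least 25% of the element was repeat-masked, 51 of 67 members were higher (76.1%), against 47.4% of the other 458. In the CpG-poor class the shares were 76.2% of 63 and 63.2% of 299. The repeat-masked members had a median GC content of 47.5%, below that of the others. In the CpG-poor class the medians were 47.4% and 50.3%. Of all members with 45% to 50% GC, repeat-masked or not, 85.4% were higher. Whether the gap remains at equal GC was not tested. These shares have no counterpart here over all listed elements, so they are not read as particular to lncRNA starts. All 24 members with a near-identical copy elsewhere in the genome (at least 95% identity over 90% of the element) were higher, as were 99.4% of the 490 such elements in the whole table. How the authors assigned reads from such copies is not given in the sources used here, so the value of each is uncertain in position. They include the highest members of all in the authors' deposited table: Gm16092 (8.77, 3 copies), AC164314.1 (6.13, 1 copy) and A530040E14Rik (5.37, 2 copies). Gm42418, a gene model that overlaps ribosomal RNA sequence, was also among them (3.50, 1 copy). Without the copied elements and 3 that could not be placed, 49.0% of 498 members were higher.

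Members with an AP-1 or IRF match were mostly higher, and few CpG-rich members held one. In the central 300 bp of the 432 members of at least that length, an AP-1 match was found in 94 (21.8%), beside 24.3% of all listed elements of that length and 40.2% of the other distal ones. Of these 94, 76 were higher (80.9%, exact interval 71.4% to 88.2%), against 41.4% of the 338 without one. Among CpG-poor members 86.2% of 87 with a match were higher (77.1% to 92.7%) and 57.4% of 197 without. With 1 match the share was 84.0% of 75, and all 12 with 2 or more were higher (exact lower bound 73.5%), from 0.77 to 2.35 in the authors' deposited table. Of CpG-rich members, 1 of 7 with a match was higher (exact interval 0.36% to 57.9%), against 19.1% of 141 without. Over both classes the median GC content was 48.5% with a match and 56.3% without. Other distal elements of the same GC deciles without an AP-1 match were higher in 64.3%, 16.5 points under the 80.9% of the members with one. Members without a match lay 2.02 points above other distal elements without one at equal GC. For the 88 members with a match and a matched stratum, the difference from other distal elements with one was -1.80 points.

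IRF matches were found in 49 members (11.3%, beside 10.7% of all listed elements), of which 40 were higher (81.6%, exact interval 68.0% to 91.2%), against 46.0% without. In the CpG-poor class 86.0% of 43 with a match were higher, against 62.7% of 241. In the CpG-rich class 3 of 6 with a match were (exact interval 11.8% to 88.2%), against 17.6% of 142. Members with an IRF match lay 10.7 points above other distal elements of equal GC without one. Of CpG-poor members with AP-1, IRF or both, 86.2% of 116 were higher, and with neither 52.4% of 168. Of the 110 AP-1 matches in these windows 1 overlapped a match of another motif searched (RUNX), and of the 56 IRF matches 7 did, 6 of them with NFAT (TGGAAA).

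Other T cell factors showed smaller or less certain gaps. In CpG-poor members STAT (TTCNNNGAA) gave 78.1% of 32 with a match against 64.7% without, RUNX (TGTGGT) 75.6% of 78 against 62.6%, and NFAT 74.4% of 82 against 62.9%. The lower bounds of the exact intervals around the shares with a match were 60.03%, 64.6% and 63.6%, under the share without for STAT and at most 2 points above it for RUNX and NFAT. Among CpG-poor other distal elements the gap was nearly absent for RUNX (77.3% with a match, 76.9% without). There STAT gave 86.0% against 75.2% and NFAT 82.6% against 74.6%. A match of ROR (TAGGTCA), bound by the Th17 factor RORγt, occurred in 10 CpG-poor members, 8 of them higher. The exact interval, 44.4% to 97.5%, holds the 65.7% without a match. Over all listed elements the share with a match was 11.1% for STAT, 20.7% for RUNX, 21.2% for NFAT and 2.79% for ROR. The cyclic AMP response element CRE (TGACGTCA) was present in 7 CpG-poor members, all higher, and NF-kB (GGGANTTTC) in 8, of which 7 were higher. Their exact intervals, 59.0% to 100% and 47.3% to 99.7%, hold the shares without a match, 65.3% and 65.6%. Among CpG-rich members 1 of 4 with CRE was higher, and the 1 with NF-kB was lower. Of CpG-poor members 2.46% held CRE and 2.82% NF-kB, beside 1.02% and 3.17% of all listed CpG-poor elements.

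Sequences of housekeeping promoter factors differed in the share of higher members, and several were found in few members. The KLF and SP box GGGCGGGG was found in 55 members, 12.7% (15.99% of all listed elements), of which 18.2% were higher against 54.6% without. Of the 55, 42 were CpG-rich. Among CpG-poor members 4 of 13 with the box were higher against 67.9% of 271 without, and their median GC was 56.4% against 49.5%. None of 6 members with the NRF1 sequence GCATGCGC was higher (exact upper bound 45.9%), and 2.05% of all listed elements hold it. Of 11 with a match of CTCF, the factor of chromatin loop anchors, 2 were higher, beside 13.7% of the other distal elements with one. The E-box CACGTG was in 30 members (6.42% of all listed elements hold it), 33.3% higher against 51.2% without. Median GC was 60.4% with the E-box and 53.4% without. In the CpG-poor class 5 of 14 with it were higher, against 67.8% without. The gap went the other way in the CpG-rich class, at 5 of 16 (exact interval 11.0% to 58.7%) against 17.4%. NFY (CCAATC) had a match in 62 members, 14.4% of the 432 (11.5% of all listed elements). Of the 62, 58.1% were higher against 48.6% without, and in the CpG-poor class 71.8% of 39 against 65.3%. The exact intervals with a match, 44.8% to 70.5% and 55.1% to 85.0%, hold the shares without. Among other distal elements the shares were 72.3% with an NFY match and 73.0% without. YY1 (AAGATGGCG, in 1.30% of all listed elements) was present in 5 members, 3 of them higher.

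**Figure D4:**
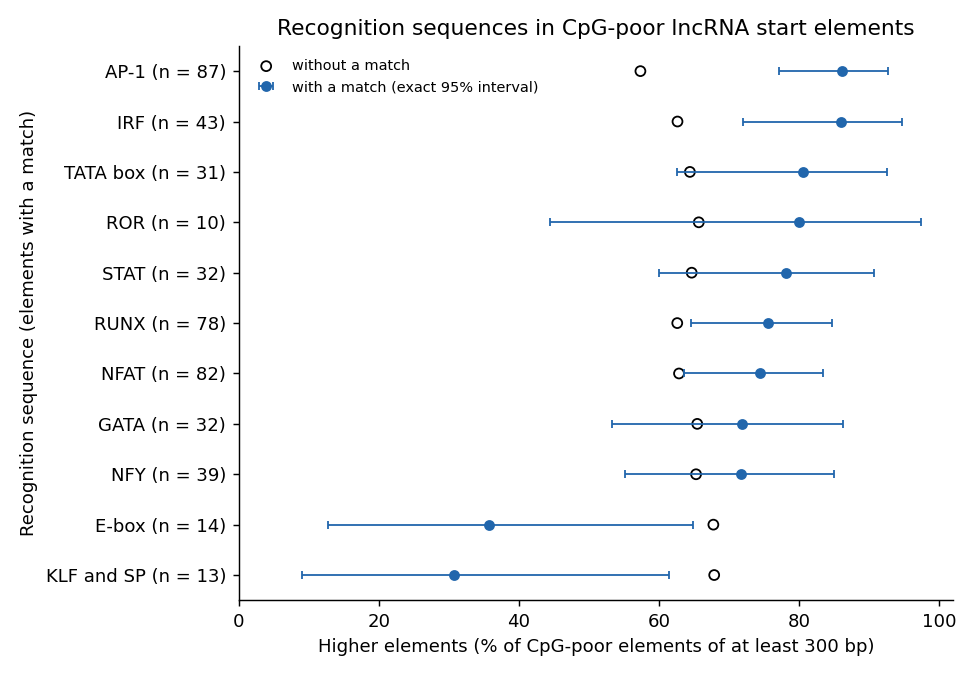
For the 11 recognition sequences found in at least 10 of the 284 CpG-poor elements of 300 bp or more, filled points give the percent higher among elements with a match, with its exact 95% interval, and open circles the percent among those without. AP-1 and IRF lie farthest above their open circles, and the E-box and the KLF and SP box lie below theirs.

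LncRNAs with a known role lay close to the other members of their CpG class. Lists of 94 annotated lncRNA genes with a known class or role gave 34 members at 28 genes; 13 were higher (38.2%, exact interval 22.2% to 56.4%, beside 51.0% of all members). CpG-rich ones were higher in 3 of 18 cases (16.7%, beside 19.02% of all CpG-rich members) and CpG-poor ones in 10 of 16 (62.5%, beside 65.5%). The lists were drawn up with earlier results of these data known and carry no test.

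**Figure D5:**
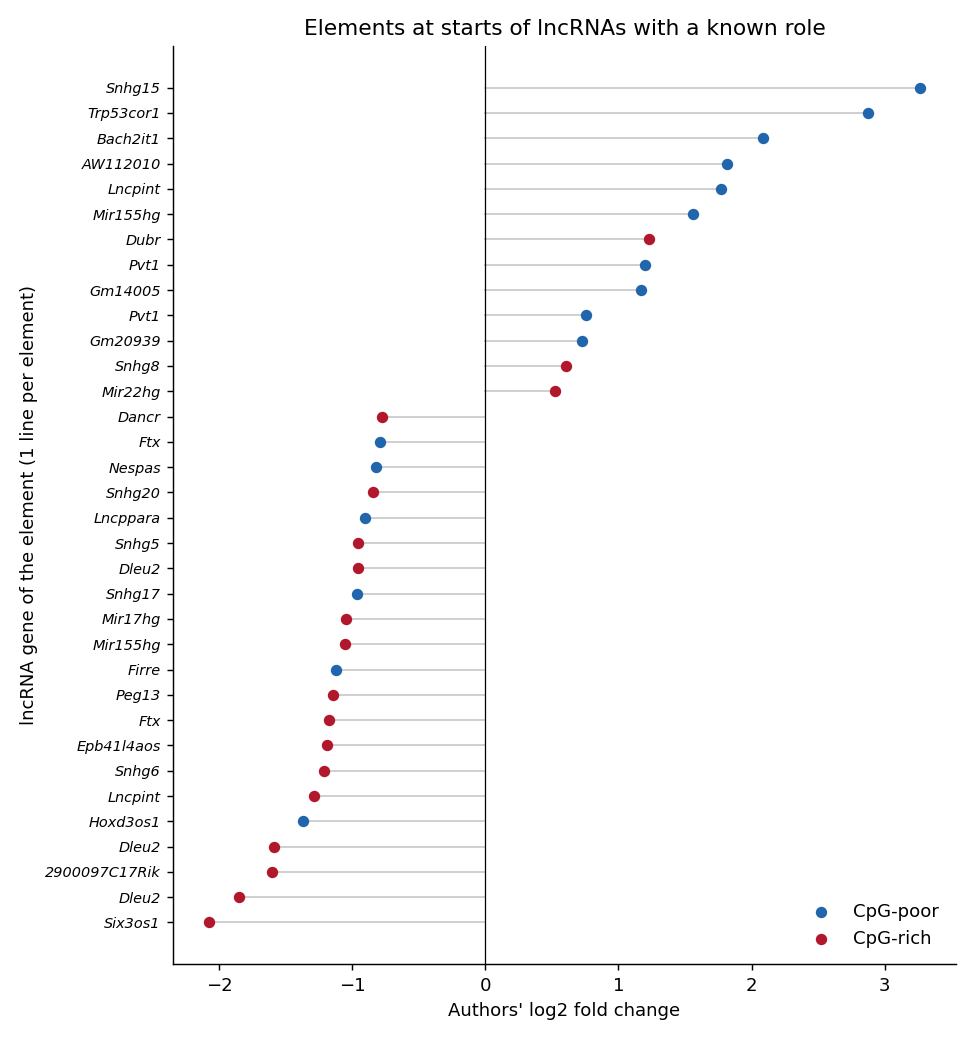
Each line is 1 of the 34 elements at starts of listed lncRNAs, ordered by the authors' log2 fold change on the x axis, with CpG-rich elements in red and CpG-poor ones in blue. The 13 higher elements run from Mir22hg at 0.53 to Snhg15 at 3.27 and hold 3 red points; the 21 lower ones reach -2.08 at Six3os1 and hold 15.

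Host genes of small RNAs were for the most part CpG-rich. Genes whose introns or exons carry small nucleolar RNAs, which guide the modification of ribosomal RNA, gave 8 members, 6 of them CpG-rich; 2 were higher (exact interval 3.19% to 65.1%, which holds the 51.0% of all members). Snhg15 had the smallest q-value of the 34 in the authors' deposited table (log2 fold change 3.27, q-value 9.66e-19). Its element lay 420.5 bp upstream of a Snhg15 TSS at chromosome 11, 6526851 to 6527450, and 80.2% of it was repeat-masked. Snhg8 was weakly higher (0.61). The lower ones were Snhg6 (-1.21), Epb41l4aos (-1.19), Snhg17 (-0.96), Snhg5 (-0.96), Snhg20 (-0.84) and Dancr (-0.78), of which only Snhg17 was CpG-poor.

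MicroRNA host genes gave 10 members, 7 of them CpG-rich; 2 were higher (exact interval 2.52% to 55.6%, which also holds 51.0%). Mir155hg, host of the immune microRNA miR-155, had 2 elements that went opposite ways. Its higher element (1.56 in the authors' deposited table, 38.5% GC) lay 265 bp past a TSS inside the gene and 615 bp from the hairpin of Mir155, whereas the lower one (-1.06, 66.4% GC) spanned the first start, 10565 bp from it. Both contained an AP-1 match, and the higher one an IRF match as well. Mir22hg, host of miR-22, was higher (0.53, the smallest positive value of the lists). Lower ones were Mir17hg, host of the proliferation-promoting miR-17 to miR-92 cluster (-1.05, 1121 bp from Mir17), the 3 elements of Dleu2, host of the miR-15 and miR-16 pair (-0.96, -1.59 and -1.85), Lncppara, host of let-7 microRNAs (-0.90), and both elements of Ftx, a regulator of Xist (-1.18 and -0.79).

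Imprinted and X-linked regulatory RNAs were lower in all 5 members (exact upper bound of the higher share 52.2%, above the 51.0% of all members). Beside Ftx these were Firre, an X-linked RNA that organises nuclear architecture (-1.12), Peg13, an imprinted RNA inside Trappc9 (-1.15), and Nespas, the imprinted antisense RNA of the Gnas locus (-0.82). The list of developmental cluster RNAs gave 2 members, both lower: Six3os1, opposite the eye and forebrain gene Six3 (-2.08), and Hoxd3os1 (-1.37). Haglr, which also lies in the HoxD cluster but was not on that list, had 2 higher elements (0.69 and 1.03), so RNAs of that cluster did not share a direction.

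Of 8 members on the list of abundant or nuclear body RNAs, 6 were higher (exact interval 34.9% to 96.8%, which holds the 51.0% of all members). Trp53cor1, known as lincRNA-p21 and activated by p53 beside the cell cycle inhibitor Cdkn1a, reached 2.87 in the authors' deposited table (q-value 2.05e-16). Its element spanned the TSS at chromosome 17, 29078726 to 29079325, and was CpG-poor with 54.0% GC. Pvt1, the neighbour of the oncogene Myc, had 2 higher elements: 1.20 at its first start, 51866 bp from the Myc TSS, and 0.75 at an inner one. Dubr (1.23) and Gm20939 (0.72) were higher. 2900097C17Rik, the mouse counterpart of NORAD, which holds Pumilio proteins and guards genome stability, was lower (-1.60) and CpG-rich.

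Immune lncRNAs gave 10 members at 6 genes, 6 of them higher (exact interval 26.2% to 87.8%). Bach2it1 lies within Bach2, a repressor that restrains effector differentiation of T cells; its element had 2 AP-1 matches and a value of 2.09. AW112010, an interferon-inducible RNA of lymphocytes and myeloid cells, reached 1.82 with an element of 175 bp that spanned the TSS and held an IRF match. Gm14005, also called Morrbid, which restrains the death gene Bcl2l11, stood at 1.17 and had an AP-1 match. The remaining 3 higher members were the Mir155hg and Pvt1 elements described above, and the 4 lower ones were those of Dleu2 and the first start of Mir155hg.

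Members next to T cell genes were higher about as often as other members of their CpG class. With the nearest coding TSS within 100 kb, 15 members lay beside 11 coding genes of the Th17 and T cell activation lists, and 10 of the 15 were higher. All but 1 of the 15 were CpG-poor, a class in which 65.5% of all members were higher. Taking the member with the smallest p-value for each coding gene, 9 were higher. Of these, 8 were, with their values in the authors' deposited table, A430093F15Rik near the T cell surface receptor Cd5 (2.10), Bach2it1, Gm33524 near Egr3, which T cell receptor signals induce (1.95), Pvt1 near Myc, 2310001H17Rik near the activation marker Cd69 (1.19), Junos near the AP-1 subunit Jun (1.06), Gm12534 near Il21 (1.04) and Gm32255 near Egr2 (1.01). The 2 lower ones were Gm33460 near Eomes, a factor of cytotoxic and interferon-gamma producing T cells (-1.15), and AC163635.1 near the kinase gene Pim1 (-0.91). Gm12534 is annotated as antisense, and Il21 encodes a cytokine that Th17 cells make; its element spanned the Gm12534 TSS, 1189.5 bp past that of Il21, and held an AP-1 match.

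The 10 highest members without a copy were all CpG-poor, at log2 fold changes of 3.52 to 4.45. They were Gm39317 (4.45), Gm42917 (4.17), Gm11399 (3.83), Gm14199 (3.82), 4933432I03Rik (3.78), 2610206C17Rik (3.65), 4930551O13Rik (3.63), Gm47271 (3.53), Gm34093 (3.53) and Gm42208 (3.52) in the authors' deposited table. IRF matches were present in 5 of these elements: Gm42917 with 3, 4930551O13Rik with 2, and Gm14199, 4933432I03Rik and 2610206C17Rik with 1. AP-1 matches were present in 4933432I03Rik, 2610206C17Rik and Gm42208. The Gm42917 element lay in an intron 1296 bp past the TSS of Trafd1, whose product dampens innate immune signalling. 4933432I03Rik lies 13339 bp from Acod1, which makes the antimicrobial metabolite itaconate. At Gm39317, which led the list, none of the 18 motifs was found and 41.2% of the element was repeat-masked.

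Of the 10 lowest members without a copy 7 were CpG-rich. Gm5082 (-3.98), Gm26981 (-3.38) and AC025794.1 (-2.59) were the CpG-poor ones. The CpG-rich ones were Gm8066 (-3.36), 1810059C17Rik (-3.29), A730035I17Rik (-3.10), 5330438I03Rik (-3.02), AW047730 (-2.78), Gm12462 (-2.58) and 6530409C15Rik (-2.55). The element of 1810059C17Rik held 7 matches of the KLF and SP box and lay 1563.5 bp from the TSS of Mllt10, a gene of leukaemia fusions. The Gm12462 element lay 18640 bp from a TSS of Pax5, the B cell identity factor. Gm26981 was the exception in composition, with 36.2% GC in an element that spanned its TSS.

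Of the 31 CpG-rich members that were higher, 7 had a near-identical copy, AC102496.1 (4.46, 50 copies) and Gm5784 (4.23, 4 copies) among them. The highest without one were Gm13067 (2.56), Frmd8os (2.50), Gm11613 (2.31) and Rab10os (2.01) in the authors' deposited table. Among known lncRNAs, Dubr, Snhg8 and Mir22hg belonged to this class.

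Several elements at the starts of 1 gene often went the same way. Of 31 genes with at least 2 members, 9 had only higher ones, 15 only lower ones and 7 both. In 5 of the 7 mixed genes every lower element was richer in GC than the higher one, and in 3 of them (E130102H24Rik, Lncpint and Mir155hg) the higher element was CpG-poor and the lower one CpG-rich. Genes with 3 or more members were 2310001H17Rik, Dleu2, Gm20732 and Gm32569. At 2310001H17Rik, beside Cd69, the 3 elements within 135 bp of a TSS were lower (-0.52, -0.77 and -0.94). They were short, at 75, 75 and 50 bp, and 88% of the last was repeat-masked. The higher element (1.19, 250 bp long) was centred 923.5 bp downstream of a different TSS of the gene. It lay 42315.5 bp from the Cd69 TSS, and the lower ones 36878 to 37328 bp from that TSS. Dleu2 (-0.96 to -1.85) and Gm20732 (-1.11 to -1.26) had 3 lower CpG-rich elements each. Their lengths were 1350, 125 and 125 bp at Dleu2 and 350, 75 and 675 bp at Gm20732. Gm32569 had 1 higher element that spanned a TSS (1.35), with an IRF and an NF-kB match, and 2 lower ones beside its starts (-0.90 and -1.05). Elements of 1 gene share sequence context and are not independent.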

How the data were processed

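The authors deposited 1 table of STARR-seq elements on mm10 that, per the file headers, combines the alignments of all 4 replicates; it gives each element's log2 fold change, p-value and q-value, which were used as deposited. The sources used here name no aligner and no caller. All q-values were reproduced as Benjamini-Hochberg adjustments over 114722 tests, of which the table lists the 24232 elements under 0.01; 15 on contigs were left out. Coding TSSs were those of protein_coding transcripts. Sequence came from GRCm38, motifs (18) were searched in central windows of 300 bp, and minimap2 2.31-r1302 (k 19, w 10) gave the near-identical copies. Equal-GC shares use GC deciles of all listed elements, and intervals are Clopper-Pearson. No count, depth or value per replicate was used, so no test over samples was run; statistics were tested on simulated data. The members, gene lists and motifs were chosen with earlier results of these data known. Named were the 10 highest and lowest members without a copy, members of the lists, 1 member per neighbouring T cell gene (smallest p-value) and genes with 3 or more members; the sequences, copied members and CpG-rich higher members were picked after their values were seen. The analysis used Python 3.11.15, numpy 2.4.6, pandas 2.3.3 and scipy 1.17.1. One member beside a T cell gene is not reported here.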

Additional observations from a re-analysis of the deposited data

How the results depend on the processing

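No paired analysis was possible because the samples form 1 group and the table holds no value per replicate; leaving out a replicate was not possible for the same reason. The share of higher members stayed between 47.2% and 59.8% over 14 alternatives. The median log2 fold change of members (0.58) lies at the lower edge of the positive values. It turned negative with a lncRNA window of 500 bp (-0.63) and with elements that span the TSS (-0.77). The same held with the 5′ end of the gene as the start (-0.62) and without near-identical copies (-0.63). With q-values under 0.001 the share of higher members was 59.8%, the median 0.99, the gap to coding promoter elements 46.2 points and the gap of CpG-rich to CpG-poor members -55.9 points. Among members changed by a log2 value of 1 or more in size the median was 1.05, and the difference from other distal elements at equal GC changed sign to 0.21 points (-4.13 to 0.21 over 16 alternatives). The gap of CpG-rich to CpG-poor members ran from -55.9 to -44.2 points over 15 alternatives, and that between members with and without an AP-1 match from 28.8 to 41.9 points over 3. The cause of these shifts was not tested. The definition of coding TSSs from every transcript, and GC deciles within CpG-poor elements, were alternatives chosen after seeing the data; neither changed a direction. Depth is unknown, so how far it limits these shares cannot be given.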
